A study of Bos taurus with 18 samples.

Results

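The genes described here encode the proteasome, the barrel-shaped protease that degrades ubiquitin-tagged proteins in every nucleated cell. Members were the genes whose single symbol in the platform's probe-to-gene table began with PSMA, PSMB, PSMC, PSMD or PSMG, without PSMB8 and PSMB9, and a gene with several probe sets was read from the probe set that was brightest on average over 18 arrays. This gave 33 of the 9155 genes with a single symbol: 14 genes of the core particle, 16 of the regulatory particle and 3 assembly chaperones. RNA of cells collected from the milk of 18 cows (Bos taurus) was hybridised to Affymetrix bovine genome arrays, 6 cows in each of 3 groups and an array for each cow. The healthy cows were 2 to 4 years old, without clinical signs and with fewer than 100000 somatic cells per ml of milk, and most were sampled 10 to 100 days after calving. The mastitis cows had inflammation of the udder and the endometritis cows had inflammation of the uterine lining. Both diseased groups were in their 1st to 8th lactation, 10 to 220 days after calving, and no age is given for them. The labels name no pathogen, breed, severity or treatment, and they put a cow in its 8th lactation among the healthy cows, which the stated age cannot hold.

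The core particle is a stack of rings. The outer alpha rings (PSMA genes) form the gate, and the inner beta rings (PSMB genes) carry the protease sites of PSMB5, PSMB6 and PSMB7, which cut after hydrophobic, acidic and basic residues, respectively. The regulatory particle caps the barrel: its ATPase ring (PSMC genes) unfolds substrates, and its non-ATPase subunits (PSMD genes) bind and remove ubiquitin. Under interferon, and constitutively in many immune cells, PSMB8, PSMB9 and PSMB10 take the places of PSMB5, PSMB6 and PSMB7, respectively, in newly built particles called immunoproteasomes. Milk holds shed or secreting mammary epithelial cells and leukocytes, and neutrophils enter in large numbers during mastitis.

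The label of constitutive subunits did not hold for every member. PSMB10 is an immunoproteasome subunit that the rule on symbols keeps, and PSMD5, PSMD9 and PSMD10 are chaperones that assemble the base of the regulatory particle and are absent from the finished particle. They are therefore described separately where it matters. The core members were 6 PSMA and 8 PSMB genes, and the regulatory members were 6 PSMC and 10 PSMD genes. All 33 members were above the median of all values on the platform, 2.55 on the log2 scale, on all 18 arrays. Every value given below is a deposited log2 value or a difference of such values, so a difference of 1 is a 2-fold change. A difference was called where limma gave an adjusted p under 0.05, with the adjustment over all 24016 probe sets tested. The number of arrays limits the precision, and a level is compared only between groups for the same probe set.

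The cells differed between the groups. In mastitis against healthy, 8 of 11 measured neutrophil markers rose and 0 fell, with a median difference of 3.68, while 14 of 17 mammary secretory markers and 7 of 10 epithelial markers fell, with medians of -5.62 and -1.46, and 0 rose. The summed neutrophil level was 8.93 to 11.8 in healthy, 12.9 to 14.8 in mastitis and 7.95 to 11.6 in endometritis arrays on the log2 scale. For the secretory list it was 16.1 to 16.8, 11.9 to 14.3 and 15.3 to 16.9 in the same order, and for the epithelial list 8.09 to 10.4, 5.88 to 6.31 and 6.75 to 10.1. The neutrophil list had no marker at or under 2.55 on all arrays of any group. The epithelial markers KRT8 and TJP1 were at or under it on every array, as was CLDN3 in mastitis, and ACACA was the only secretory marker there, in mastitis. None of 9 macrophage, 11 T cell and 6 erythroid markers was called between mastitis and healthy by limma, although 1 macrophage marker and 0 of the others were below an unadjusted p of 0.05. Of the 6549 genes whose mean was above 2.55, 3455 were below that p. All 6 erythroid markers were at or under 2.55 on every healthy array, and 4 of them on every mastitis array. The T cell marker CD4 was there in both groups, and CD28 and the B cell markers CD79A and CR2 in healthy. For markers at this floor, a missing call says little. Among 4 B cell and 7 NK markers, 1 and 2 rose. Whether a lower level came from fewer cells of a type or from less RNA per cell cannot be told apart in such bulk samples, and the part of the cell make-up in the results below was not tested. Control probe sets for dap transcripts averaged 7.32 ± 0.86 in healthy, 5.94 ± 0.42 in mastitis and 6.85 ± 0.80 in endometritis arrays (SD, n = 6; mastitis against healthy, two-sided exact permutation p = 0.00216, adjusted p = 0.0195 over 9 tests). The excess of the 3′ over the 5′ GAPDH control probe sets, a measure of RNA integrity and labelling length, was 0.88 ± 0.40, 0.39 ± 0.23 and 0.58 ± 0.25 in the same order (SD, n = 6; mastitis against healthy, exact permutation p = 0.0195, adjusted p = 0.0877). The GAPDH excess was entered as a covariate in an alternative fit, given below, and the part of the dap values was not tested.

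Mastitis milk cells held less message of all 3 constitutive protease subunits than healthy milk cells, and more of PSMB10. PSMB5 was 4.72-fold lower, PSMB6 2.65-fold lower and PSMB7 1.53-fold lower, whereas PSMB10 was 2.87-fold higher. Away from the protease sites the differences were mixed: PSMD5, PSMC2 and PSMG1 fell by 2.47-fold to 2.88-fold, PSMB4 rose, and most other members did not pass the test. Over the 33 members, 10 fell (30.3%), 2 rose (6.06%) and 21 did not pass the test. Among the 6549 genes whose mean was above 2.55, 22% were called lower and 15.6% higher in this comparison (9.35% and 10.2% of all 24016 probe sets), so the share that fell was not far above that of all such genes. The members' median difference was -0.41 against -0.08 over those genes. On the probe sets used, 25 members were below 0 and 8 above. Of the 6549 genes, 3672 were below 0 and 2877 above. Quantile normalisation of the arrays gave 16 members lower and 1 higher, and scaling to the hybridisation controls gave 1 lower and 1 higher. A covariate for the GAPDH excess left PSMB5 alone, which was called in all of the fits run.

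**Figure D1:**
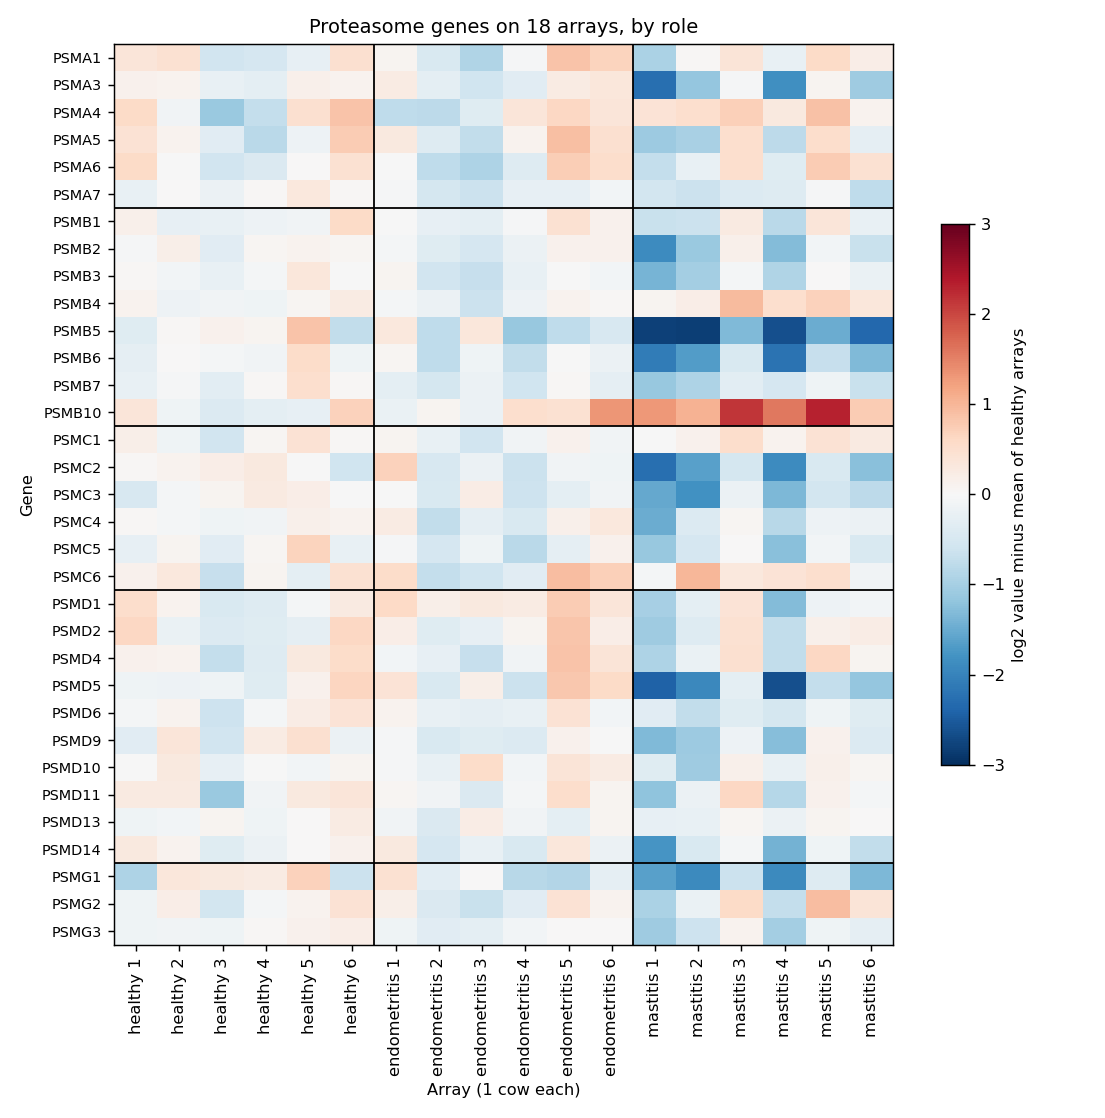
Log2 value of each of the 33 members (rows, by role from alpha ring to chaperones) on each of 18 arrays (columns), minus the gene's mean over the 6 healthy arrays; blue is lower and red higher. PSMB5 was lower and PSMB10 higher than on the healthy arrays on all 6 mastitis arrays, and the core genes had their lowest medians on mastitis arrays 1, 2 and 4.

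PSMB5 carries the chymotrypsin-like site, the main target of proteasome inhibitor drugs. Its level was 6.94, 7.73 and 8.54 (lowest, median and highest of 6 arrays) in healthy milk cells, 4.86, 5.18 and 6.35 in mastitis and 6.55, 7.07 and 8.02 in endometritis. All 6 mastitis arrays were below every healthy array. The difference of mastitis from healthy was -2.24 ± 0.34 (SE, limma adjusted p = 0.000377), with a 95% interval from -2.97 to -1.51. It was the largest difference of any member.

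PSMB6, the subunit with the caspase-like site, was at 7.84, 8.02 and 8.64 in healthy, 5.89, 6.60 and 7.65 in mastitis and 7.33, 7.94 and 8.16 in endometritis arrays. Here too the mastitis and healthy arrays did not overlap. The difference was -1.41 ± 0.28 (SE, adjusted p = 0.00226). PSMB7, the subunit with the trypsin-like site, was at 6.94, 7.24 and 7.75 in healthy, 6.11, 6.66 and 7.11 in mastitis and 6.66, 6.97 and 7.29 in endometritis arrays. Its mastitis and healthy arrays overlapped, with 5 of 6 mastitis arrays below the lowest healthy array. The difference was -0.62 ± 0.17 (SE, adjusted p = 0.0178). PSMB5 and PSMB6 were the only members that were lower without overlap, against 13.5% of the genes above 2.55.

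PSMB10 replaces PSMB7 in the immunoproteasome. Its level was 4.21, 4.42 and 5.31 in healthy, 5.37, 6.05 and 6.93 in mastitis and 4.41, 4.88 and 5.95 in endometritis arrays. Every mastitis array was above every healthy array, the only member of which this held, against 9.59% of the genes above 2.55. The difference was 1.52 ± 0.31 (SE, adjusted p = 0.00261). The other immunoproteasome subunits, which are no members, rose as well. PSMB8 went from 3.48, 3.97 and 4.91 in healthy to 5.31, 5.92 and 6.66 in mastitis, a difference of 1.90 ± 0.27 (SE, adjusted p = 0.000243). PSMB9 went from 4.88, 5.55 and 6.61 to 7.64, 8.42 and 8.62, a difference of 2.65 ± 0.30 (SE, adjusted p = 4.52e-05).

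**Figure D2:**
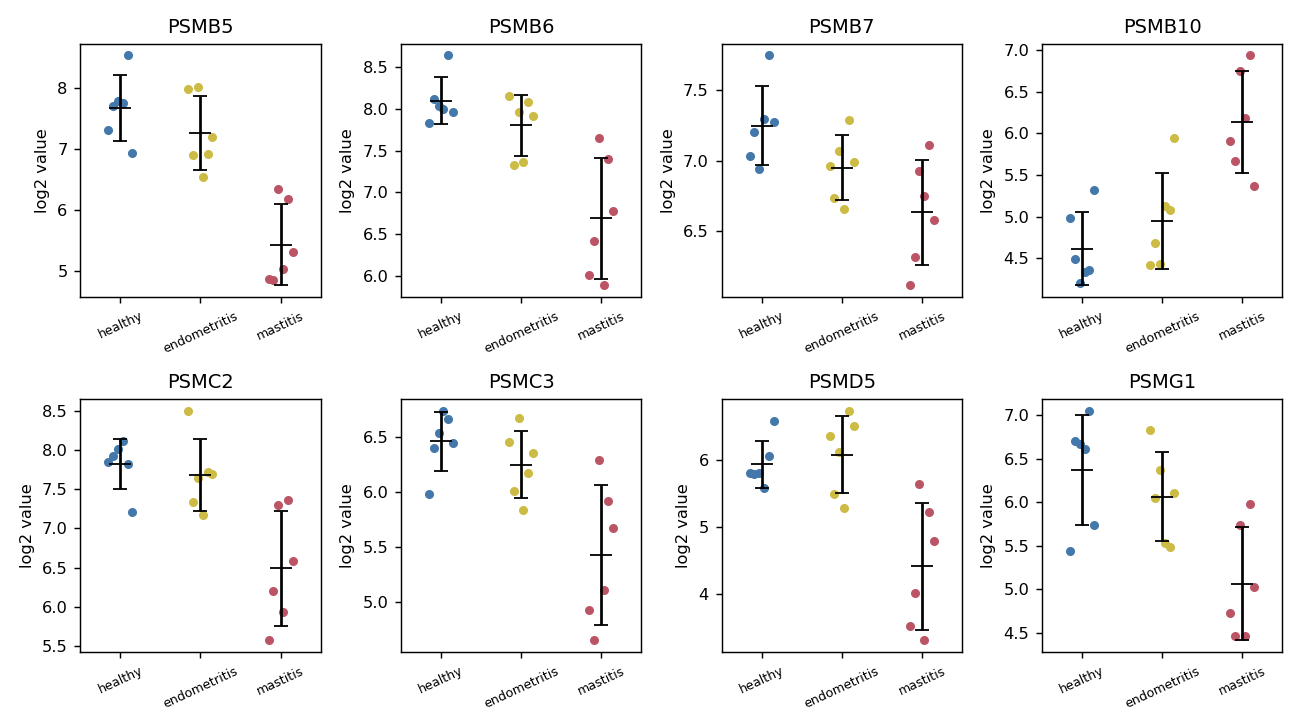
Log2 values of 8 members on the healthy, endometritis and mastitis arrays; points are arrays, and bars give the mean ± SD of 6 arrays, with a separate vertical range for each gene. The mastitis arrays of PSMB5 (4.86 to 6.35) and PSMB6 (5.89 to 7.65) lie below all healthy arrays and those of PSMB10 (5.37 to 6.93) above them, whereas the groups of the other 5 genes overlap.

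Each inducible subunit can be set against the constitutive subunit it replaces within the same array, which removes a shift that acts equally on both probe sets. Cell make-up and RNA integrity need not act equally on both, and their part in these gaps was not tested. With the GAPDH covariate, PSMB6, PSMB7 and PSMB10 lost their calls in mastitis against healthy, and PSMB5, PSMB8 and PSMB9 kept theirs. As the probe sets differ, only the change of this gap between groups can be read, not its sign. PSMB8 minus PSMB5 ran from -4.91 to -2.04 in healthy (mean -3.61), from -3.75 to -1.75 in endometritis (mean -2.61) and from -0.57 to 1.78 in mastitis arrays (mean 0.54). The mastitis arrays stood clear of both other groups. PSMB9 minus PSMB6 had means of -2.52 in healthy, -1.83 in endometritis and 1.53 in mastitis, and its mastitis range of 0.87 to 2.73 did not overlap with -3.69 to -1.35 or -2.58 to -1.09. PSMB10 minus PSMB7 had means of -2.63, -2.00 and -0.50. Its mastitis range of -1.21 to -0.18 lay above the healthy range of -3.39 to -1.96 and overlapped with the endometritis range of -2.63 to -1.04. For PSMB8 minus PSMB5, the highest mastitis values were 1.78 and 1.57 on arrays 1 and 4, and the lowest was -0.57 on array 3. These gaps are a description of differences tested gene by gene and have no test of their own.

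**Figure D3:**
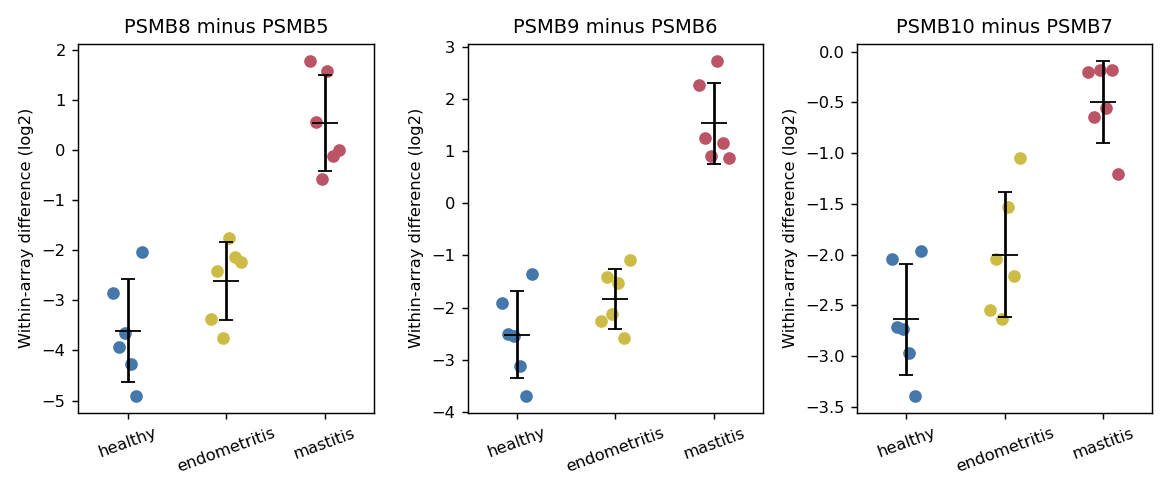
Within-array log2 difference between each inducible subunit and the constitutive subunit it replaces, by group; points are arrays and bars the mean ± SD of 6 arrays, with a separate vertical range in each panel. Mastitis arrays lie above all healthy arrays in each pair, with means of 0.54, 1.53 and -0.50 against -3.61, -2.52 and -2.63.

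The remaining beta subunits have no protease site of their own and form the ring around the active subunits. PSMB4, whose tail clamps the beta rings together, was at 7.96, 8.09 and 8.37 in healthy, 8.20, 8.53 and 9.06 in mastitis and 7.47, 8.01 and 8.21 in endometritis arrays. It rose by 0.46 ± 0.15 (SE, adjusted p = 0.0379), a 1.37-fold change with overlap between the groups. The call was lost on leaving out any of 7 arrays (healthy 2, 3, 4 or 5, mastitis 3, 4 or 5), where the adjusted p went as high as 0.0809. PSMB2 fell, with a difference of -0.82 (adjusted p = 0.0465), but its other probe set gave -0.36 and was not called. Its call was lost without any 1 of 9 arrays (healthy 1, 2, 4, 5 or 6, mastitis 1, 2, 4 or 6; adjusted p up to 0.107). PSMB3 differed by -0.59 (adjusted p = 0.0809) and PSMB1 by -0.29 (adjusted p = 0.419), and neither passed the test.

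In the alpha ring, 2 of 6 members fell, 0 rose and the median difference was -0.18. PSMA7 was at 9.82, 10.07 and 10.36 in healthy, 9.28, 9.57 and 10.00 in mastitis and 9.41, 9.80 and 10.00 in endometritis arrays. The groups overlapped, and mastitis differed from healthy by -0.47 ± 0.13 (SE, adjusted p = 0.0187). PSMA3 spread widely within mastitis, at 5.72, 6.87 and 8.06, against 7.69, 8.10 and 8.14 in healthy and 7.39, 7.97 and 8.33 in endometritis arrays. Its difference of -1.05 ± 0.34 (SE, adjusted p = 0.0401) lost its call without any 1 of 10 arrays, all but mastitis 3 and 5, with an adjusted p of up to 0.0957. PSMA1 and PSMA6 differed by 0.00 and 0.07, PSMA4 by 0.48 and PSMA5 by -0.35, and none of these passed the test.

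Within the ATPase ring, 2 of 6 genes fell, 0 rose and the median difference was -0.53. PSMC2 (Rpt1) was at 7.22, 7.89 and 8.12 in healthy, 5.57, 6.39 and 7.36 in mastitis and 7.17, 7.67 and 8.51 in endometritis arrays. The mastitis and healthy arrays overlapped, with 4 of 6 mastitis arrays below the lowest healthy array. The difference was -1.33 ± 0.30 (SE, 2.52-fold, adjusted p = 0.00523), while the gene's other probe set gave -0.47 (adjusted p = 0.317). PSMC3 (Rpt5), one of the ATPases whose tails open the gate of the core, was at 5.98, 6.49 and 6.74 in healthy, 4.65, 5.39 and 6.29 in mastitis and 5.83, 6.26 and 6.67 in endometritis arrays. Of its mastitis arrays, 5 lay below all healthy arrays, and the difference was -1.04 ± 0.25 (SE, adjusted p = 0.00735). PSMC4 and PSMC5 differed by -0.49 and -0.57, and PSMC1 and PSMC6 by 0.24 and 0.34, without passing the test. The 2 probe sets of PSMC6 went opposite ways, the other at -0.59 (adjusted p = 0.0808), and the other probe set of PSMC5 was at background, with a mean of 2.44.

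On the probe sets used, all 10 non-ATPase genes were below 0 in mastitis against healthy, but only PSMD5 passed the test. Their median difference was -0.33. The 10 include PSMD6, whose other probe set went the other way and which has no clear direction, as given below. PSMD5, a chaperone that holds the ATPases of the base during assembly, was at 5.58, 5.81 and 6.58 in healthy, 3.30, 4.40 and 5.65 in mastitis and 5.29, 6.24 and 6.74 in endometritis arrays. All mastitis arrays but 1 lay below the healthy ones, and the difference was -1.53 ± 0.38 (SE, 2.88-fold, adjusted p = 0.00996). The 3 base chaperones under PSMD names (PSMD5, PSMD9 and PSMD10) had a median of -0.69. This is the value of PSMD9, which was not called, and PSMD10 was at -0.22. The subunits of the finished particle had smaller medians, -0.33 for the lid genes PSMD6, PSMD11, PSMD13 and PSMD14 and -0.23 for the base genes PSMD1, PSMD2 and PSMD4, with 0 called in either set. Single genes crossed this order, as the lid gene PSMD14 was at -0.76, and the difference between the sets was not tested.

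PSMD14 is the deubiquitinase that strips ubiquitin chains from substrates. It was at 6.89, 7.31 and 7.54 in healthy and 5.49, 6.65 and 7.19 in mastitis arrays, with overlap, and its difference of -0.76 did not pass the test (adjusted p = 0.0587). The ubiquitin receptor PSMD4 differed by -0.12 (adjusted p = 0.878), and the scaffold PSMD2 by -0.23 (adjusted p = 0.655). PSMD13 differed by -0.08 and PSMD11 by -0.26. PSMD6 gave opposite answers on its 2 probe sets. The brighter probe set, which represents the gene here, differed by -0.41 (adjusted p = 0.0899), and the dimmer went from 2.49, 3.22 and 3.47 in healthy to 3.45, 4.63 and 6.42 in mastitis, a difference of 1.57 that was called (adjusted p = 0.0177). No direction can be given for this gene.

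Of the chaperones that build the alpha ring, PSMG1 was at 5.44, 6.64 and 7.05 in healthy, 4.46, 4.88 and 5.98 in mastitis and 5.49, 6.08 and 6.83 in endometritis arrays. Its groups overlapped and it fell by 1.30 ± 0.34 (SE, 2.47-fold, adjusted p = 0.0126). PSMG2, its partner, differed by 0.00, with a 95% interval reaching 0.64 above. PSMG3 differed by -0.50 and missed the threshold (adjusted p = 0.0508).

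**Figure D4:**
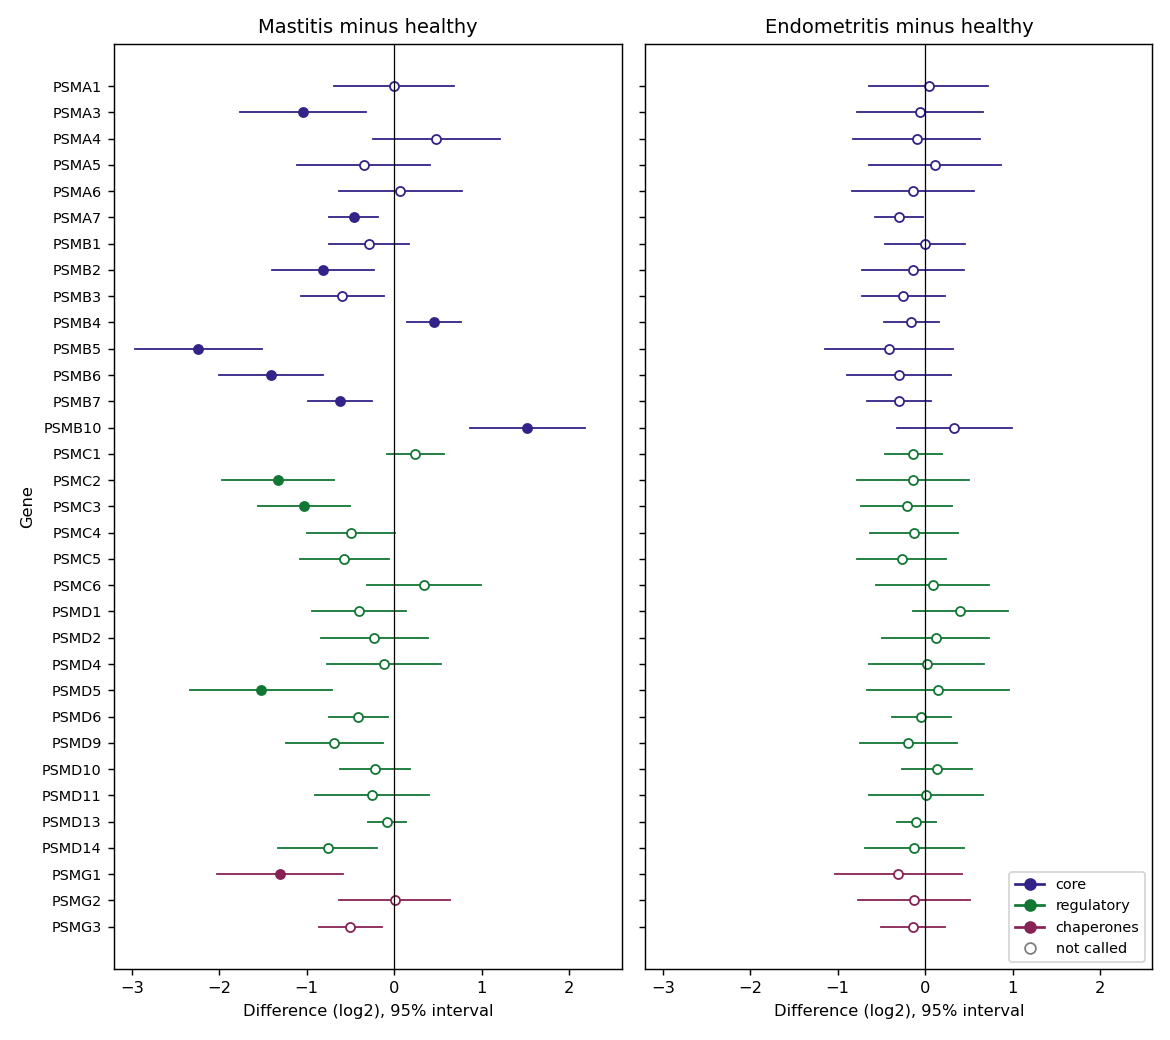
Difference from healthy on the log2 scale for each of the 33 members in mastitis (left) and endometritis (right), with 95% intervals from limma; filled points were called at an adjusted p under 0.05. In mastitis 12 points are filled, from -2.24 for PSMB5 to 1.52 for PSMB10, and in endometritis none is.

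The core and regulatory particles had like medians in mastitis against healthy, -0.41 each. Of the core members 6 of 14 fell (42.9%), 2 rose (14.3%) and 6 did not pass the test. Of the regulatory members 3 of 16 fell (18.8%), 0 rose and 13 did not pass. These 16 include the chaperones PSMD5, PSMD9 and PSMD10, and PSMD5 was among the 3 that fell. The others that fell were the ATPases PSMC2 and PSMC3, and 0 of the lid and base PSMD genes were called. The regulatory share and median were not taken again without these chaperones. Beside the 22% lower and 15.6% higher of all genes above 2.55, the core share that fell was larger and the regulatory share smaller. The difference between these shares was not tested. The core share includes PSMA3 and PSMB2, whose calls were lost on leaving out single arrays, as given above. In mastitis against endometritis the shares stood the other way, with 14.3% of the core and 25% of the regulatory members lower. Without PSMB10 the core median was -0.47, with 6 lower and 1 higher of 13. Without PSMB10 and the 3 protease subunits it was -0.32, with 3 lower and 1 higher of 10. The core ranged from -2.24 (PSMB5) to 1.52 (PSMB10), and the regulatory particle from -1.53 (PSMD5) to 0.34 (PSMC6). The wider range of the core rested on the protease subunits and PSMB10. Without these the core ranged from -1.05 to 0.48, less far below 0 than the regulatory genes PSMD5 (-1.53) and PSMC2 (-1.33). PSMD5 is absent from the finished particle, and the other probe set of PSMC2 gave -0.47. The next regulatory gene was PSMC3 at -1.04, close to the lower end of this core range.

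The mastitis arrays were more spread than those of the other groups, which is given as a description. The median SD of a member over 6 arrays was 0.60 in mastitis, 0.34 in healthy and 0.36 in endometritis, and the highest in mastitis was 0.95 for PSMD5. With each gene centred on its mean over 18 arrays, the median of the 14 core genes was -0.90, -0.59 and -0.48 on mastitis arrays 1, 2 and 4, -0.16 on mastitis array 6, and 0.37 and 0.45 on mastitis arrays 3 and 5. The regulatory median followed a like order, at -1.02, -0.25 and -0.73 on mastitis arrays 1, 2 and 4, -0.09 on array 6, and 0.24 and 0.17 on arrays 3 and 5. Mastitis arrays 3 and 5 were thus within the healthy range of -0.25 to 0.37 for the regulatory genes and at or just above the upper end of the healthy range of -0.07 to 0.40 for the core genes. The summed neutrophil level was also higher on mastitis arrays 1, 2, 4 and 6 (14.6, 14.8, 14.8 and 14.3) than on arrays 3 and 5 (12.9 and 13.2). The median of all genes above 2.55, centred in the same way, divided these arrays alike. It was -0.18, -0.14, -0.19 and -0.06 on mastitis arrays 1, 2, 4 and 6, and -0.02 and 0.04 on arrays 3 and 5. The order was thus not particular to the proteasome genes, although their medians spread wider. The part of either measure in the order was not tested.

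PSMB5 followed the same division, at 4.88, 4.86, 5.04 and 5.31 on mastitis arrays 1, 2, 4 and 6 and at 6.35 and 6.19 on arrays 3 and 5. These last values were still below the lowest healthy array. PSMB10, although higher in mastitis than in healthy, also had its highest values, 6.75 and 6.93, on mastitis arrays 3 and 5. Leaving out mastitis array 5 moved the number of members that fell from 10 to 14, and leaving out mastitis array 1 moved the core and regulatory medians to -0.32 and -0.29.

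**Figure D5:**
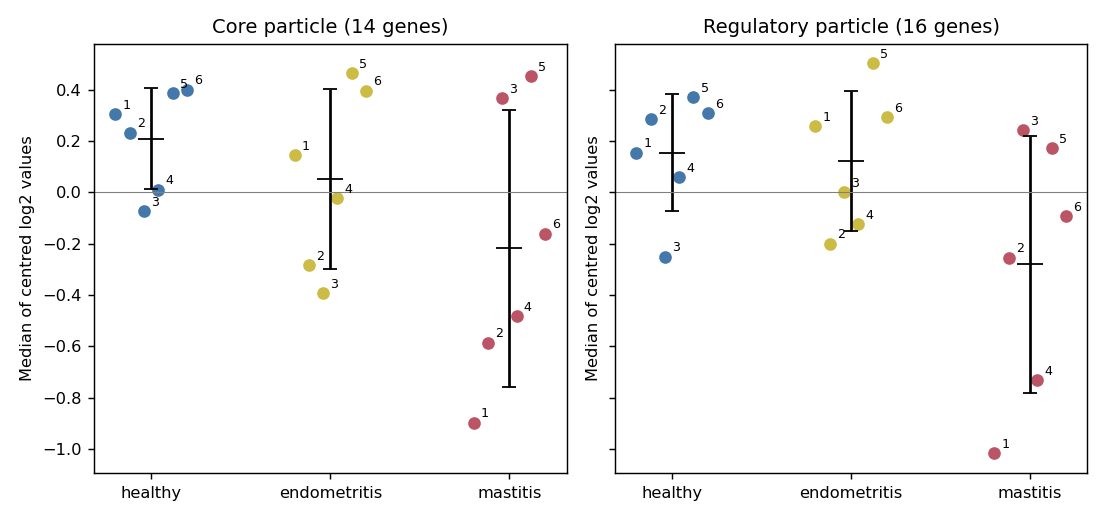
Median over the 14 core genes (left) and the 16 regulatory genes (right) of log2 values centred on each gene's mean over 18 arrays; each point is an array with its number, and bars give the mean ± SD of 6 arrays. Mastitis arrays 1, 2 and 4 are the lowest core medians (-0.90 to -0.48), and mastitis arrays 3 and 5 (0.37 and 0.45) lie with the upper healthy arrays.

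Endometritis milk cells did not differ from healthy milk cells in any proteasome gene by the test used. The largest differences were -0.41 for PSMB5 and 0.40 for PSMD1, and the median over the 33 members was -0.12. The core median was -0.14 and the regulatory median -0.07. Limma called 0 members and 0% of the 24016 probe sets in this comparison. At an unadjusted limma p under 0.05 there was 1 of 33 members, PSMA7, with a difference of -0.30 (unadjusted p = 0.0361, adjusted p = 0.925). Of the 6549 genes above 2.55, 440 were below that p, so this single member is no result about the proteasome genes. PSMB7 differed by -0.30, PSMB6 by -0.30 and PSMB10 by 0.33, and none of them passed the test. The 95% intervals of all members lay between -1.14 and 0.99, so a change of up to about 2-fold could have gone unseen for the members with the widest intervals. Scaling to the hybridisation controls moved the median difference of the 12782 expressed probe sets from 0.03 to 0.19 and turned the core and regulatory medians to 0.03 and 0.09, so their sign has no weight.

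Mastitis against endometritis sets the udder disease against a disease outside the udder. It shares its mastitis arrays with the first comparison and is no independent repeat of it. PSMB5 was 3.55-fold lower, PSMB6 2.16-fold lower and PSMB10 2.27-fold higher in mastitis, and the regulatory genes PSMC2, PSMC3, PSMD1 and PSMD5 were lower. In all, 6 members were lower (18.2%), 2 higher (6.06%) and 25 not called, where 15.1% of genes above 2.55 were called lower and 12.7% higher (6.55% and 7.99% of all probe sets). The median difference was -0.34 over the members, -0.30 over the core with 2 of 14 lower and 2 higher, and -0.36 over the regulatory particle with 4 of 16 lower. Over all genes above 2.55 it was -0.11. The median-centred arrays gave 7 lower and 3 higher, quantile normalisation 11 lower and 1 higher, and scaling to the hybridisation controls 2 lower and 0 higher.

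The mastitis arrays of PSMB5, 4.86 to 6.35, were all below the lowest endometritis array at 6.55, a difference of -1.83 ± 0.34 (SE, adjusted p = 0.00225). It was the only member without overlap in this comparison, against 8.31% lower and 6.95% higher without overlap among the genes above 2.55. PSMD5 differed by -1.67 ± 0.38 (SE, adjusted p = 0.00779), and PSMB5 and PSMD5 were called in every fit run. PSMB4 rose by 0.61 ± 0.15 (SE, adjusted p = 0.00996). PSMB7, lower in mastitis against healthy, differed here by -0.32 and did not pass the test (adjusted p = 0.267). The groups stood in the order healthy, endometritis, mastitis for PSMB7, with medians of 7.24, 6.97 and 6.66, where neither neighbouring pair was called.

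PSMD1, the large scaffold of the base, was the only member called in this comparison that was not called in the first. It differed from healthy by -0.41 in mastitis (adjusted p = 0.327) and by 0.40 in endometritis (adjusted p = 0.925), and mastitis and endometritis differed by -0.81 ± 0.25 (SE, adjusted p = 0.0434). This call was lost without any 1 of 9 arrays, all but mastitis 3, 5 and 6, where the adjusted p rose to as much as 0.104. The call of PSMC3, -0.82 ± 0.25 (SE, adjusted p = 0.0343), was lost without any 1 of 6 arrays (mastitis 1, 2 or 4, endometritis 1, 3 or 6; adjusted p up to 0.0832). Without mastitis array 3, 10 members were lower instead of 6.

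Genes that work with the proteasome moved in both directions in mastitis against healthy, where, as above, 22% of the genes above 2.55 were called lower and 15.6% higher. The proteasome activator subunits PSME1 and PSME2, which form the interferon-inducible cap, rose 1.88-fold (adjusted p = 0.00164) and 3.14-fold (adjusted p = 9.2e-05). Of 5 measured activator and inhibitor genes, 3 rose and 0 fell, the third being PSME3IP1 at 1.85-fold. The mastitis and healthy arrays of all 3 did not overlap, against 9.59% of the genes above 2.55 that were higher without overlap. With the GAPDH covariate PSME1 and PSME2 were still called and PSME3IP1 was not. PSME4, the activator PA200, differed by -0.43 (adjusted p = 0.0512).

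Among 8 measured genes that assemble or supply proteasomes, 4 rose (NFE2L2, MAFG, AKIRIN2 and MAFF) and 0 fell, with a median of 0.59. With the GAPDH covariate 0 were called. MAFF differed by 0.94 (limma adjusted p = 0.0294). Its call was lost in the fit of 12 arrays and without any 1 of 7 arrays (healthy 2, 3, 4 or 5, mastitis 2, 3 or 4). NFE2L2, the oxidative stress factor NRF2, was 4.6-fold higher (adjusted p = 0.00417), its small partner MAFG 5.8-fold higher (adjusted p = 0.00614) and AKIRIN2, which carries proteasomes into the nucleus, 4.1-fold higher (adjusted p = 0.00268). NFE2L1, the factor that raises proteasome genes when proteasomes are inhibited, differed by -0.46 and did not pass the test (adjusted p = 0.0563), and the core maturation factor POMP differed by -0.28 (adjusted p = 0.415). PAAF1 and KEAP1 differed by -0.03 and 0.23 and did not pass the test either.

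Of 13 shuttle factors and enzymes that dock on the proteasome, 2 rose and 4 fell, with a median of -0.10. The count was 2 higher and 1 lower on the hybridisation controls and 1 higher and 1 lower with the GAPDH covariate, where ZFAND2A and UCHL5 were still called. With all probe sets of a gene averaged, it was 3 higher and 3 lower. Among the 4 that fell, UBQLN1 differed by -0.63 (limma adjusted p = 0.0302). Its call was lost without any 1 of 5 arrays (healthy 2, 5 or 6, mastitis 1 or 4). Over the fits its difference ran from -0.89 to 0.45, so no direction can be given for this gene. UCHL5, a deubiquitinase of the regulatory particle, was 3.03-fold lower (adjusted p = 0.000864) without overlap, against 13.5% of the genes above 2.55 that were lower without overlap. ZFAND2A, an arsenite-inducible proteasome-binding protein, was 6.27-fold higher (adjusted p = 0.00114), and the autophagy receptor SQSTM1 2.73-fold higher (adjusted p = 0.0141).

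Upstream in the ubiquitin cascade, 3 of 7 measured ubiquitin and E1 genes rose and 2 fell, with a median of 0.47. The E1 enzyme of ISG15, UBA7, was 10.8-fold higher (adjusted p = 0.00027), the main ubiquitin E1, UBA1, 1.9-fold higher (adjusted p = 0.000736), and NAE1, a subunit of the NEDD8 E1, 1.95-fold lower (adjusted p = 0.00295). Of 26 E2 conjugating enzymes 5 rose and 6 fell, with a median of -0.21. UBE2L6, the E2 of ISG15, was 8.55-fold higher (adjusted p = 0.000219), while UBE2V1 was 4.53-fold lower (adjusted p = 0.000628) and UBE2E3 5.19-fold lower (adjusted p = 0.00238). The rises thus included the E1 and the E2 of the interferon-induced modifier ISG15. With the GAPDH covariate 2 E1 genes were higher (UBA1 and UBA7) and 0 lower, and 1 E2 gene was higher (UBE2L6) and 2 lower (UBE2V1 among them). On the hybridisation controls the counts were 2 higher and 0 lower for the E1 list and 3 higher and 2 lower for the E2 list, and quantile normalisation gave 1 higher and 7 lower for the latter.

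The COP9 signalosome, which removes NEDD8 from ubiquitin ligases and is built on the same plan as the proteasome lid, had 4 of 7 measured genes lower and 0 higher, with a median of -0.73. COPS4 was 2.77-fold lower (adjusted p = 0.00272), COPS5, its deneddylase, 2.54-fold lower (adjusted p = 0.00604), and COPS3 1.75-fold lower (adjusted p = 0.00632). The count fell to 1 on the hybridisation controls (COPS4) and to 0 with the GAPDH covariate. In the list of the VCP segregase, which pulls ubiquitylated proteins out of membranes and complexes, 1 of 11 genes rose and 2 fell, with a median of -0.09. UFD1 was 1.9-fold lower (adjusted p = 0.00309), UBXN6 1.41-fold lower (adjusted p = 0.0305) and UBXN8 2.28-fold higher (adjusted p = 0.00611). The call of UBXN6 was lost without any 1 of 7 arrays (healthy 3, 4 or 5, mastitis 1, 2, 4 or 6; adjusted p up to 0.0725) and in 6 of 10 other fits. On the hybridisation controls 1 gene of this list was higher and 0 lower, and with the GAPDH covariate 0 were called.

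Limma called none of the 6 measured subunits of the CCT chaperonin, the folding machine of actin and tubulin, with a median of -0.02 and 0 below an unadjusted p of 0.05. Nor did it call any of 6 peptidases that act on proteasome products, where 1 was below that p and ERAP1, which trims peptides for MHC class I, differed by 0.81 (adjusted p = 0.0591). Of the 6549 genes above 2.55, 3455 were below that p in mastitis against healthy. In endometritis against healthy, limma called 0 genes of any of these lists. Below an unadjusted p of 0.05 were 1 gene among the activators, 1 among the shuttles and 2 among the ubiquitin and E1 genes. The E2 enzymes had 1 such gene and the VCP list 2. Of the 6549 genes above 2.55, 440 were below that p in endometritis against healthy, so these counts are no result about the lists.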

How the data were processed

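RNA from milk cells of 18 cows was labelled from 100 ng of total RNA with a 3′ IVT Express kit and hybridised to Affymetrix bovine arrays, per the labels' protocols, after selection for an RNA integrity number above 6. The values are the authors' deposited log2 expression values of normalised intensity; RMA, GCRMA and limma are listed in the submitters' processing notes, without version or purpose. The log base was read from the range of 2.43 to 14.2, and fold changes rest on that reading. Gene symbols came from the platform's probe table. All 33 members were matched by Entrez identifier in the RefSeq gene table of assembly ARS-UCD2.0 with the same symbol, and no coordinates were used.

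Of 24128 probe sets, 112 controls were left out. Linear models with two-sided moderated tests (lmFit, then eBayes, from limma 3.58.1 under R 4.3.3) were fitted to all 18 arrays with a term per group, with Benjamini-Hochberg adjustment over 24016 probe sets and no filter on dim probe sets. Arrays within a group correlated at 0.847 to 0.984, and 0 pairs were identical. The labels name 6 animals per group; array numbers within a group only follow the order of deposit. Alternatives changed the samples in the fit, the scaling (quantile, hybridisation controls, median centring), the dim filter, the variance model, array weights, the choice of probe set, a GAPDH covariate, a block on the number in the sample title, a size threshold of 1, and left out each array. The scripts were tested on simulated data.

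The members and gene lists were chosen with earlier results of these data known. Values were given for members chosen by smallest and largest p in each role, for the catalytic subunits, PSMB10, PSMD4 and PSMD14, and for up to 3 genes of each other list with the smallest p. Members named beyond that, PSMB2, PSMD6 and PSMG3 among them, and PSME4, NFE2L1, POMP, MAFF, PAAF1, KEAP1 and UBQLN1, were chosen after their values were seen.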

Additional observations from a re-analysis of the deposited data

Results flagged for a closer look

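In 3 of 99 sets of 6 arrays (33 members in 3 groups) a single array stood apart from the others by Dixon's criterion for 6 samples, which sets the gap to the nearest array against the group's range. Chance alone gives about 5% of such sets. All 3 were healthy cows, each a different one. For PSMB6, healthy array 5 was highest at 8.64, with the next array at 8.12. For PSMC2, healthy array 6 was lowest at 7.22, with the next at 7.82. For PSMD11, healthy array 3 was lowest at 5.99, with the next at 7.01. Without any of these arrays, PSMB6 and PSMC2 were still called lower in mastitis against healthy.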

How the results depend on the processing

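In mastitis against healthy, PSMB5 was called under all alternatives, and 9 of the 12 calls held whichever array was left out. Leaving out arrays gave 1 to 2 members higher and 8 to 14 lower, and 2 to 2 higher and 4 to 10 lower in mastitis against endometritis, where 6 of 8 calls held throughout. Counts that moved by over 1.5 times in mastitis against healthy were 1 higher in the fit of 12 arrays, 1 higher and 16 lower (10 of them in common with the deposited scale) after quantile normalisation, 1 higher and 1 lower on the hybridisation controls, 0 higher and 1 lower with the GAPDH covariate, and 1 higher with a difference of at least 1. The count of lower members was between 7 and 15 in the other fits of this comparison. In mastitis against endometritis, counts that moved as far were 2 lower in the fit of 12 arrays, 1 higher and 11 lower after quantile normalisation, 0 higher and 2 lower on the hybridisation controls, 2 lower with array weights, 10 lower with the title-number block (5 in common), and 1 higher with a difference of at least 1. The causes were not tested. In mastitis against healthy the median differences stayed below 0, at -0.70 to -0.15 for the core and -0.58 to -0.15 for the regulatory particle, against -0.41 each as deposited. These shifts were smaller than the SD of the mastitis arrays (0.54 and 0.50) but the largest exceeded that of the healthy arrays (0.20 and 0.23). Endometritis against healthy gave 0 members called in every fit. Scaling to the hybridisation controls moved the median of 12782 expressed probe sets from -0.01 to 0.25 in mastitis against healthy. No paired analysis was possible because the labels give no replicate numbers that groups share. Probe sets near the floor limit what a difference can show, but no member lay there.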
